A study of Mus musculus with 6 samples.

Results

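The genes described here are 10 regulators of the G1 phase of the cell cycle, namely the D cyclins Ccnd1, Ccnd2 and Ccnd3, the kinases Cdk4 and Cdk6, the CDK inhibitors Cdkn1b, Cdkn1c and Cdkn2c, and the pocket protein genes Rb1 and Rbl2. They were taken by symbol from the 22375 rows of the deposited table, and each symbol matched 1 row. The cells were C2C12, a line of mouse myoblasts kept in growth medium with serum. In the 4H group, cells seeded near confluence on coated elastic plates were stretched cyclically at 15% elongation for 4 h, and the CON group was not stretched. Each group had 3 libraries, called replicates 1, 2 and 3 after the biosample number in their labels, so that the libraries titled 4H3 and 4H4 are 4H replicates 2 and 3. The comparison asks how levels of these RNAs differed between stretched and unstretched myoblasts.

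D cyclins are made in response to growth factors, adhesion and other signals from outside the cell, and they bind and activate CDK4 and CDK6. These kinases phosphorylate the retinoblastoma protein and its relatives, which releases E2F factors and lets the cell enter S phase. Inhibitors of the INK4 class bind CDK4 and CDK6 themselves, while those of the CIP/KIP class bind complexes of cyclins with CDKs. In muscle precursors, withdrawal from the cell cycle precedes fusion into fibers, and cyclin D3, p21, p57 and the retinoblastoma protein are known for their part in it.

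Values are FPKM, fragments per kilobase of transcript and per sequencing depth, which corrects for transcript length and so allows levels of different genes to be set side by side. The 10 genes all averaged 0.5 FPKM or more, the minimum for testing, and were among the 11593 genes tested. Differences were tested by limma on log2(FPKM + 0.5), a scale on which changes of weakly expressed genes appear smaller than they are, with Benjamini-Hochberg adjustment over every gene tested. A gene was called higher or lower at an adjusted p of up to 0.05, and differentially expressed where its log2 fold change was also 1 or more in either direction. With 3 libraries in each group, the smallest p of an exact permutation test is 0.1. The labels do not say that the libraries of a group came from separate cultures, so the p values measure the spread between these libraries, which may be technical.

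Summed FPKM lay between 395790 and 397260 in the CON libraries and between 385146 and 387516 in the 4H libraries. The fragment number of a library cannot be read from FPKM, but its depth relative to another was estimated from the commonest ratio of genes below 0.1 FPKM, searched within 0.2 on the natural log scale. The 15 pairs differed by at most 1.55%. Each estimate rests on 12 to 23 of 562 to 796 genes, and in the 20 trios of libraries the estimates added up to within 0.0441 percentage points. Rows above 0 numbered 14125 to 14186 in the CON libraries and 14899 to 14972 in the 4H libraries. Log2 values of any 2 libraries had a Pearson correlation across genes of 0.992 to 0.993 within a group and 0.967 to 0.97 between groups, and genes are not independent replicates. The myoblast identity given in the labels was checked with 8 markers, all of which were measured above the filter. Of these, 6 were higher and 2 (Myf5 and Chrnd) lower in the 4H group, beside 22.6% and 24.1% of all genes tested. Their summed level was 212 to 219 FPKM in CON and 294 to 309.9 FPKM in 4H, most of it Des and Itga7. Myod1, the myogenic factor, was at 5.13 ± 0.573 FPKM in CON and 18.2 ± 0.738 FPKM in 4H, and Myf5, its relative, was at 15.8 ± 0.851 and 9.82 ± 1.13 FPKM (mean ± SD, n = 3 each). The 10 markers of myotubes summed to 2.9 to 3.53 FPKM in CON and 6.98 to 8.38 FPKM in 4H, most of it Actn3. Myog, which marks commitment to differentiation, was at 0.217 ± 0.0743 and 0.0265 ± 0.0459 FPKM, and Myh8 was listed at 0 in all libraries. The 2 of the 10 that could be tested were both higher in 4H. These were Actn3, an actinin of fast fibers, at 2.18 ± 0.196 FPKM in CON and 6.02 ± 0.478 FPKM in 4H (1.28 on the log2 scale, adjusted p = 1.6e-05), and Mymk, a fusion factor, at 0.525 ± 0.165 and 1.01 ± 0.12 FPKM (0.57, adjusted p = 0.0194). The 8 markers of blood, endothelium, epithelium, fat and glia summed to at most 1.13 FPKM in any library, and Ptprc, Adgre1 and Epcam were listed at 0 throughout. The part of these marker changes in the results below was not tested.

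Of the 10 G1 genes, 4 were higher in the 4H group (Ccnd1, Ccnd3, Cdk6 and Cdkn1c) and 3 were lower (Ccnd2, Cdk4 and Rb1), while Cdkn1b, Cdkn2c and Rbl2 did not pass the test. Among all genes tested, 22.6% were called higher and 24.1% were called lower, so a large share of the transcriptome differed. The groups did not overlap in the 7 genes that passed the test, against 56.7% of all genes tested. None of the 10 reached differential expression (0 by limma, and likewise 0 with an unadjusted p under 0.05 in place of the adjusted one), a class that held 3.88% of all genes tested. The median absolute log2 fold change of the 10 genes was 0.34, and that of all genes tested was 0.19. Directions were mixed, with a median log2 fold change of 0.00 for the 10 genes and of -0.01 for all genes tested. In bulk RNA, a change in the fraction of cells that express a gene and a change in its RNA per cell cannot be told apart.

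**Figure D1:**
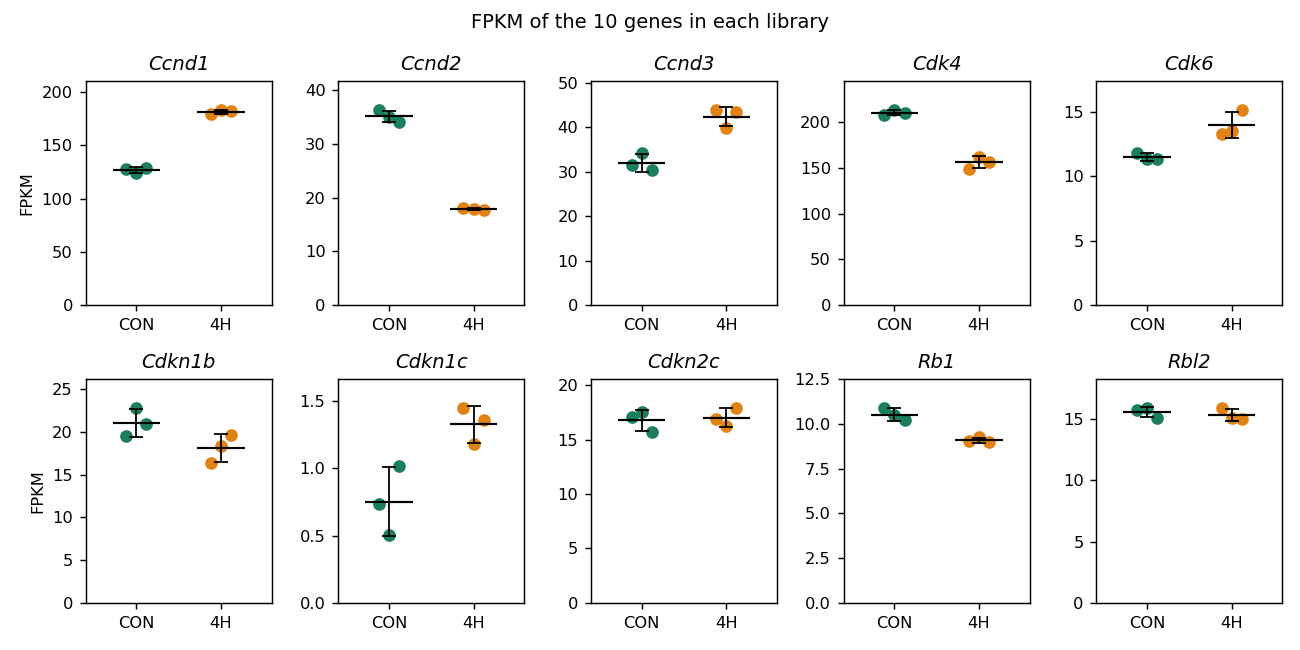
FPKM of each of the 10 genes (vertical axes, each starting at 0) in the 3 CON libraries (green) and the 3 4H libraries (orange), with the mean as a line and the SD as a bar. The groups do not overlap for Ccnd1, Ccnd2, Ccnd3, Cdk4, Cdk6, Cdkn1c and Rb1, and they overlap for Cdkn1b, Cdkn2c and Rbl2.

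The D cyclins moved in opposite directions. Ccnd1 (ENSMUSG00000070348, GRCm38 chr7:144929931-144939925, minus strand) encodes cyclin D1, the D cyclin most often tied to growth factor signals. It was at 128, 124 and 129 FPKM in CON replicates 1 to 3 and at 179.6, 183 and 182 FPKM in 4H replicates 1 to 3. Every 4H library was above every CON library. The mean rose from 127 ± 2.6 to 181 ± 1.66 FPKM (SD, n = 3), or by 0.52 ± 0.03 on the log2 scale (estimate ± SE, limma, adjusted p = 2.73e-06). Ccnd1 shares 1100 exonic bases with LTO1 on the other strand, a gene at a mean of 4.35 FPKM in CON and 5.5 FPKM in 4H.

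Ccnd2 (ENSMUSG00000000184, chr6:127125162-127152193, minus strand) encodes cyclin D2. It was at 36.2, 34.9 and 34.1 FPKM in CON and at 18.1, 17.8 and 17.7 FPKM in 4H, with every 4H value well below all CON values. Its log2 fold change was -0.95 ± 0.04 (SE, adjusted p = 8.98e-07), the largest absolute change of the 10 genes and just short of the threshold for differential expression. Of all genes tested, 4.62% had a larger absolute log2 fold change. Ccnd2 shares exonic bases with a pair of antisense genes that are not rows of the table.

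Ccnd3 (ENSMUSG00000034165, chr17:47505051-47599691, plus strand) encodes cyclin D3, the D cyclin known for its rise during muscle differentiation. It was at 31.5, 34.2 and 30.3 FPKM in CON and at 43.8, 39.9 and 43.4 FPKM in 4H. All 4H libraries were higher, by 0.40 ± 0.06 on the log2 scale (SE, adjusted p = 0.000599). It shares 361 exonic bases with Bysl on the other strand, which was at a mean of 18.9 FPKM in CON and 18.1 FPKM in 4H.

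The makeup of the D cyclin RNA pool changed accordingly. Within a library, the share of a gene in a sum does not depend on how that library was scaled. Ccnd1 made up 65.3%, 64.2% and 66.6% of the summed D cyclin FPKM in the CON libraries and 74.4%, 76% and 74.9% in the 4H libraries. Ccnd2 made up 18.1 ± 0.441% in CON and 7.39 ± 0.111% in 4H (SD, n = 3). The share of Ccnd3 was 16.5 ± 1.06% in CON and 17.5 ± 0.807% in 4H, and its groups overlapped. Ccnd1 was at 3.61 ± 0.138 times the level of Ccnd2 in CON and at 10.2 ± 0.205 times its level in 4H. The sum of the D cyclins was 194 ± 1.6 FPKM in CON and 242 ± 1.45 FPKM in 4H, so the fall of Ccnd2 was smaller in FPKM than the rises of Ccnd1 and Ccnd3 together. Stretches of 75 bases found in another annotated transcript, whose reads may have been split or lost, made up 20.6% of Ccnd1, 5.52% of Ccnd2 and 3.53% of Ccnd3, and among the other genes were most common in Cdkn1c (22.1%) and Cdk4 (15.7%). The sums and shares were not tested, since they are built from the members themselves.

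The kinase partners also moved apart. Cdk4 (ENSMUSG00000006728, chr10:127063534-127067920, plus strand) encodes the main D cyclin kinase of most dividing cells. It was at 208, 213 and 210.5 FPKM in CON and at 149, 162 and 157 FPKM in 4H, with all 4H libraries lower. Its log2 fold change was -0.43 ± 0.03 (SE, adjusted p = 2.64e-05), a mean of 211 ± 2.54 FPKM in CON and 156 ± 6.36 FPKM in 4H (SD, n = 3). Cdk4 shares 641 exonic bases with Tspan31 on the other strand, which was at a mean of 40.5 FPKM in CON and 50.5 FPKM in 4H, the opposite direction.

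Cdk6 (ENSMUSG00000040274, chr5:3341485-3531008, plus strand) encodes the other kinase of the D cyclins. It was much lower than Cdk4, at 11.8, 11.3 and 11.3 FPKM in CON and at 13.3, 13.5 and 15.1 FPKM in 4H. All 4H libraries were higher, with 4H replicate 3 above the other two, and the log2 fold change was 0.27 ± 0.06 (SE, adjusted p = 0.00689). Cdk6 made up 5.16 ± 0.164% of the summed FPKM of both kinases in CON and 8.2 ± 0.511% in 4H. The sum fell from 222 ± 2.33 to 170.1 ± 6.72 FPKM in the mean. With the D cyclin sum higher and the kinase sum lower, D cyclins per kinase stood at 0.889, 0.858 and 0.87 in the CON libraries and at 1.49, 1.37 and 1.41 in the 4H libraries. The order of the highest genes of the group was therefore exchanged. Cdk4 was above Ccnd1 in all 3 CON libraries, and Ccnd1 was above Cdk4 in all 3 4H libraries.

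**Figure D2:**
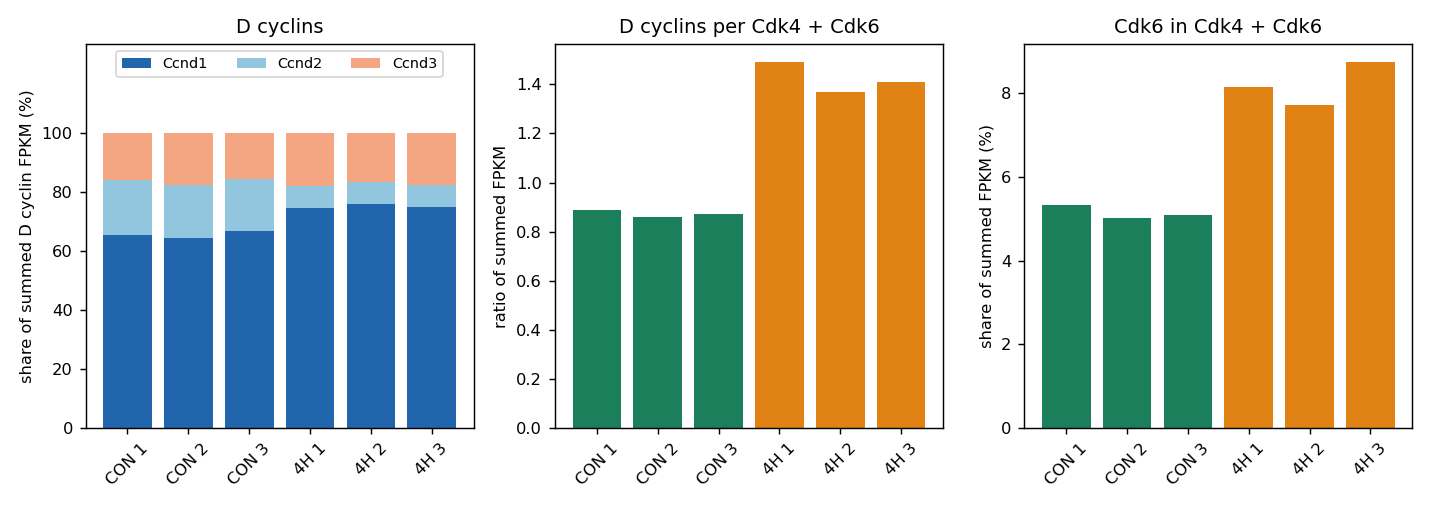
Left, share of each D cyclin in the summed D cyclin FPKM of each library (%); middle, ratio of summed D cyclin FPKM to summed Cdk4 and Cdk6 FPKM; right, share of Cdk6 in the sum of both kinases (%). Bars are single libraries, and Ccnd2 narrows from a mean of 18.1% in CON to 7.39% in 4H while the ratio in the middle rises from 0.872 to 1.42.

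RefSeq promoter windows (GRCm38.p6, 250 bases before to 50 after each transcript start) were matched for the 10 genes, as a description only. No window was found for Ccnd1, Ccnd2, Cdkn1c and Rb1. Windows were found for the other 6 genes, Ccnd3, Cdk4, Cdk6, Cdkn1b, Cdkn2c and Rbl2, with 8 windows in all. Those of the 3 genes that passed the test are printed here, written 5′ to 3′ on the strand of the gene, with capitals for every motif found on either strand.
Cdk4 (chr10:127063285-127063584, plus strand): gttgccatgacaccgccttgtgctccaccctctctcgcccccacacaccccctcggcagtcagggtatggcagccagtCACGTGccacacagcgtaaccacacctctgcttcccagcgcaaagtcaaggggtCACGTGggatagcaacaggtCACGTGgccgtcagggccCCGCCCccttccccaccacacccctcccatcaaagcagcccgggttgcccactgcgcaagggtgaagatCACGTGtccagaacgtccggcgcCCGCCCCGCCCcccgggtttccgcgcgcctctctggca
Cdk6 (chr5:3343643-3343942, plus strand): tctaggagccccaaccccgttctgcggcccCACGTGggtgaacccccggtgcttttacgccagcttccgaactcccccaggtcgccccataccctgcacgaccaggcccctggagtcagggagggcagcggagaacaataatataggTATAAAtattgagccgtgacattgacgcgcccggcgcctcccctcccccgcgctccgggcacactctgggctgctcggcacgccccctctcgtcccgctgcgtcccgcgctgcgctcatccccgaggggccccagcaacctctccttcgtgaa
Ccnd3, upstream start (chr17:47504801-47505100, plus strand): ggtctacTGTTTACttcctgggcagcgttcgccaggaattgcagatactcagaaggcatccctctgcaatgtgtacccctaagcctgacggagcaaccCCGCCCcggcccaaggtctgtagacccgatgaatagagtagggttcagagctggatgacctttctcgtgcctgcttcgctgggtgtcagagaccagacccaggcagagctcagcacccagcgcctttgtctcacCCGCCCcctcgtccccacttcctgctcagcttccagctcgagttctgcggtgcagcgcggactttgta
Ccnd3, downstream start (chr17:47593217-47593516, plus strand): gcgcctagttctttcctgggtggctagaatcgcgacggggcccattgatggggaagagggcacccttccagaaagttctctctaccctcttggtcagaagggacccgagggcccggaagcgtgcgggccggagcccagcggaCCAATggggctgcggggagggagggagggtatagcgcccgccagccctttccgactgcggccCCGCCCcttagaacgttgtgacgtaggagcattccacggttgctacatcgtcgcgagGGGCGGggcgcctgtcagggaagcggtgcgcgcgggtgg

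The Cdk4 window held the E-box letters CACGTG, which read the same on both strands, at 4 places, with first bases at -172, -118, -98 and -11 from the start. At least 1 such match was found in 7.15% of the 32851 windows of all genes, and 4 or more in 8 windows, 0.0244% of them. The cutoff of 4 was taken from the Cdk4 window, and no such count was made for the other motifs. The Cdk6 window and a window of Cdkn2c held CACGTG once each, and the Cdk6 window also held TATAAA once, found in 13.6% of all windows. A GC box, GGGCGG or its complement, was found in 6 of the 8 windows, among them those of Cdk4 and Ccnd3, and in 35.7% of all windows. The matches of the GC box at 13 and 18 in Cdk4 share a base. The first window of Ccnd3 held the FOXO letters TGTTTAC, found in 3.65% of all windows, and its second held CCAAT, found in 37.4%. None of the 8 windows held the E2F letters TTTCGCGC, TTTCCCGC or TTTGGCGC (1.84% of all windows), the AP-1 letters TGACTCA (5.2%), the CRE letters TGACGTCA (1.79%) or the letters TGATGCAA or TGATGAAA of the integrated stress response (1.9%). The cell cycle letters TTTGAA, found in 17.9% of all windows, occurred in the Rbl2 window alone. Matches are descriptions of letters and were not tested as sites.

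Of the CIP/KIP inhibitors among the 10 genes, Cdkn1c passed the test and Cdkn1b did not, and the difference between them was not tested. Cdkn1b (ENSMUSG00000003031, chr6:134920401-134925513, plus strand) encodes p27, which holds cyclin and CDK complexes inactive in resting cells. It was at 19.5, 22.8 and 20.9 FPKM in CON and at 16.4, 18.3 and 19.6 FPKM in 4H. The groups overlapped, since 4H replicate 3 was above CON replicate 1. The log2 fold change was -0.21 (95% interval -0.39 to -0.03, adjusted p = 0.0534 from limma), at the border of the threshold. Without CON replicate 1 the adjusted p was 0.0386 and without 4H replicate 3 it was 0.0294, while without CON replicate 2 it was 0.16.

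Cdkn1c (ENSMUSG00000037664, chr7:143458339-143461050, minus strand) encodes p57, an imprinted inhibitor known for its part in muscle differentiation. It was the lowest of the 10 genes, at 0.737, 0.504 and 1.02 FPKM in CON and at 1.45, 1.18 and 1.36 FPKM in 4H. All 4H libraries were higher, but CON replicate 3 came close to 4H replicate 2. The log2 fold change was 0.57 ± 0.17 (SE, 95% interval 0.18 to 0.96, adjusted p = 0.0254). This call was lost without CON replicate 1 (adjusted p = 0.0608), CON replicate 2 (0.0692), 4H replicate 1 (0.073) or 4H replicate 3 (0.0646), and with quantile normalization (0.0639). Cdkn1c shares 625 exonic bases with the antisense gene Gm44732, which is not a row of the table. Since Cdkn1b was far more abundant, Cdkn1c made up 3.49 ± 1.25% of the summed FPKM of both in CON and 6.9 ± 1.08% in 4H. The sum was 21.8 ± 1.5 FPKM in CON and 19.4 ± 1.56 FPKM in 4H, with overlapping groups. D cyclins per summed FPKM of Cdkn1b and Cdkn1c stood at 9.65, 8.29 and 8.8 in CON and at 13.5, 12.4 and 11.6 in 4H. The direction turned once Cdkn1a was added to the sum, a choice made after its values were seen. This CIP/KIP gene is not among the 10 and is more abundant than both, and with it the ratio stood at 2.39, 2.41 and 2.45 in CON and at 2.08, 2.12 and 2.23 in 4H.

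Cdkn2c (ENSMUSG00000028551, chr4:109660876-109667189, minus strand) encodes p18, an INK4 inhibitor of CDK4 and CDK6. It was at 17.1, 17.5 and 15.7 FPKM in CON and at 16.9, 16.2 and 17.9 FPKM in 4H, and the groups were mixed. The log2 fold change was 0.02, with a 95% interval from -0.12 to 0.16 (adjusted p = 0.799). No other annotated gene shared its exons or its sequence in stretches of 75 bases. Relative to its targets, Cdkn2c stood at 0.0754 ± 0.00415 per unit of summed Cdk4 and Cdk6 FPKM in CON and at 0.1 ± 0.0067 in 4H.

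Of the pocket protein genes, Rb1 passed the test and Rbl2 did not, and the difference between their changes was not tested. Rb1 (ENSMUSG00000022105, chr14:73183673-73325822, minus strand) encodes the retinoblastoma protein, the main substrate of the D cyclin kinases. It was at 10.9, 10.5 and 10.2 FPKM in CON and at 9.03, 9.26 and 9.02 FPKM in 4H. All 4H libraries were lower, with a log2 fold change of -0.20 ± 0.05 (SE, adjusted p = 0.0147). Without CON replicate 1 the adjusted p was 0.0532. Rb1 shares exonic bases with Rcbtb2 and Lpar6 on the other strand, which were at means of 4.96 and 1.85 FPKM in CON and 4.66 and 2.07 FPKM in 4H.

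Rbl2 (ENSMUSG00000031666, chr8:91070057-91123844, plus strand) encodes p130, the pocket protein of resting cells. It was at 15.7, 15.9 and 15.1 FPKM in CON and at 15.9, 15.1 and 15 FPKM in 4H, and the groups overlapped. The log2 fold change was -0.02, with a 95% interval from -0.13 to 0.09 (adjusted p = 0.764). Rbl2 shares exonic bases with Aktip on the other strand, at means of 16.1 FPKM in CON and 17.5 FPKM in 4H. Rb1 stood at 0.678 ± 0.0187 times the FPKM of Rbl2 in CON and at 0.594 ± 0.024 times in 4H, with no overlap between the groups.

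**Figure D3:**
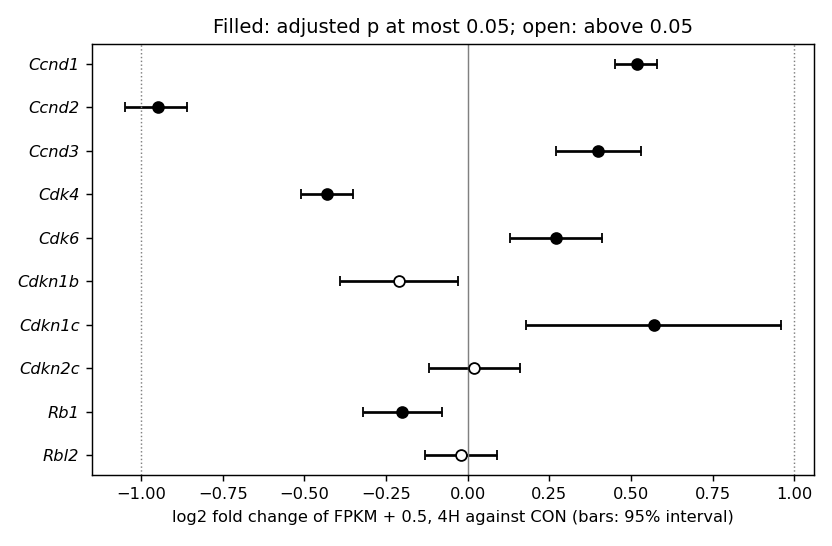
Log2 fold change of FPKM + 0.5 between 4H and CON for the 10 genes, with 95% intervals from limma and dotted lines at an absolute log2 fold change of 1. Filled points passed an adjusted p of 0.05, and Ccnd2 at -0.95 lies closest to a dotted line.

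Levels spanned a wide range in both groups, and their order changed. In CON the order of mean FPKM from high to low was Cdk4, Ccnd1, Ccnd2, Ccnd3, Cdkn1b, Cdkn2c, Rbl2, Cdk6, Rb1 and Cdkn1c. The ranges of neighbours overlapped for Ccnd2 with Ccnd3 and for Cdkn2c with Rbl2, and not for the other neighbours. In 4H the order was Ccnd1, Cdk4, Ccnd3, Cdkn1b, Ccnd2, Cdkn2c, Rbl2, Cdk6, Rb1 and Cdkn1c. There, the ranges overlapped for Cdkn1b with Ccnd2, for Ccnd2 with Cdkn2c and for Rbl2 with Cdk6. Cdk4 and Ccnd1 ranked 287 and 355 among the 11593 genes tested by mean FPKM, and Cdkn1c ranked 10948. Ccnd2, which was above Ccnd3 in all 3 CON libraries, was at 0.51 times its CON level in 4H and below Ccnd3 in all 3 4H libraries.

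Other genes of the pathway were read from the same fit. In the 11 lists of related genes, 97 genes were tested, of which 19 (19.6%) were higher and 26 (26.8%) were lower in 4H, beside 22.6% and 24.1% of all genes tested. The balance turned with TPM, under which 23 of the related genes were higher and 21 lower, and 3140 of all genes were higher and 2334 lower. That fit kept the minimum mean and the pseudocount, which are looser on the TPM scale, and tested 12457 genes in place of 11593. The part of rescaling alone in this turn was not tested. On the FPKM scale, none of the 97 related genes was differentially expressed by limma, and their largest absolute log2 fold change was 0.67. Of these 97 genes, 52 (53.6%) had an unadjusted p under 0.05 whatever their fold change, the same share as the 53.6% of all genes tested. Of the 4 further CDK inhibitors, Cdkn1a and Cdkn2d rose, and Cdkn2a and Cdkn2b were listed at 0 in all 6 libraries. Cdkn1a, which encodes p21, rose from 58.4 ± 2.69 to 93.4 ± 5.12 FPKM (0.67 on the log2 scale, adjusted p = 1.74e-05), a level above those of the 3 inhibitors among the 10 genes. Cdkn2d, which encodes the INK4 inhibitor p19, rose from 16.7 ± 1.46 to 21.8 ± 2.09 FPKM (0.37 on the log2 scale, adjusted p = 0.00775).

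Genes that act after the D cyclins in the G1/S transition were read next. Of the 5 genes listed for cyclin E, cyclin A, CDK2 and CDC25A, 2 rose, while 22.6% of all genes tested were called higher. Ccne1, a cyclin E gene, rose from 12.3 ± 0.435 to 15 ± 1.19 FPKM (0.27 on the log2 scale, adjusted p = 0.011), and Cdc25a, whose product activates CDK2, from 10.3 ± 0.644 to 13.3 ± 1.04 FPKM (0.35, adjusted p = 0.00523). Cdk2 itself had a log2 fold change of -0.03 (adjusted p = 0.578). Of the 3 genes of the CDK-activating kinase none passed the test, though Mnat1, its assembly factor, was close to the threshold at -0.30 on the log2 scale (adjusted p = 0.0504). With a minimum mean of 1 or 5 FPKM, array weights, the replicate block or without 4H replicate 3, 1 of the 3 was called lower. Whether the changes of the D cyclins differ from those of these genes was not tested.

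Among the 11 genes of E2F factors, their DP partners and p107, 3 rose and 8 did not pass, while 22.6% of all genes tested were called higher. Without 4H replicate 3, 1 of the 11 was called lower. E2f8, an atypical repressor, rose from 16.6 ± 0.631 to 25.8 ± 1.52 FPKM (0.62 on the log2 scale, adjusted p = 5.26e-05), and E2f5 rose by 0.27 on the log2 scale (adjusted p = 0.01). The MuvB core joins with p130 in the DREAM complex to silence cell cycle genes, and it joins with B-MYB, the product of Mybl2, in an activating complex. Of the 6 genes listed for both, the core subunit Lin9 rose (log2 fold change 0.43, adjusted p = 0.000373), and the core subunit Lin52 and Mybl2 fell (log2 fold changes -0.40 and -0.35, adjusted p = 0.00399 and 0.00036). Of the 13 ubiquitin ligase genes for D and E cyclins and p27, 2 fell and none was called higher, beside 24.1% and 22.6% of all genes tested. With TPM and with quantile normalization 2 were called higher, and with a minimum mean of 5 FPKM 1 was called lower. Those that fell were Fbxo31, an F-box gene linked to cyclin D1 turnover (log2 fold change -0.47, adjusted p = 0.00539), and Rnf123, a ligase of p27 (-0.29, adjusted p = 0.00545).

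Targets of E2F that act in S phase were read last. Of 30 such genes, 17 fell, 4 rose and 9 did not pass, with a median log2 fold change of -0.13, while 24.1% of all genes tested were called lower. The number that fell was 12 with TPM, 13 without a trend and 13 to 15 with single libraries left out. The largest falls were those of Cdt1, which loads the replicative helicase, from 34.1 ± 0.706 to 22.9 ± 1.01 FPKM (-0.57 on the log2 scale, adjusted p = 2.27e-05), and of Mcm10, from 18.1 ± 0.647 to 12.7 ± 0.987 FPKM (-0.50, adjusted p = 0.000375). The largest rise was that of Rrm2, a subunit of ribonucleotide reductase, from 162 ± 5.31 to 236 ± 4.78 FPKM (0.54 on the log2 scale, adjusted p = 5.46e-06), and its partner Rrm1 rose by 0.21 on the log2 scale (adjusted p = 0.00122).

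**Figure D4:**
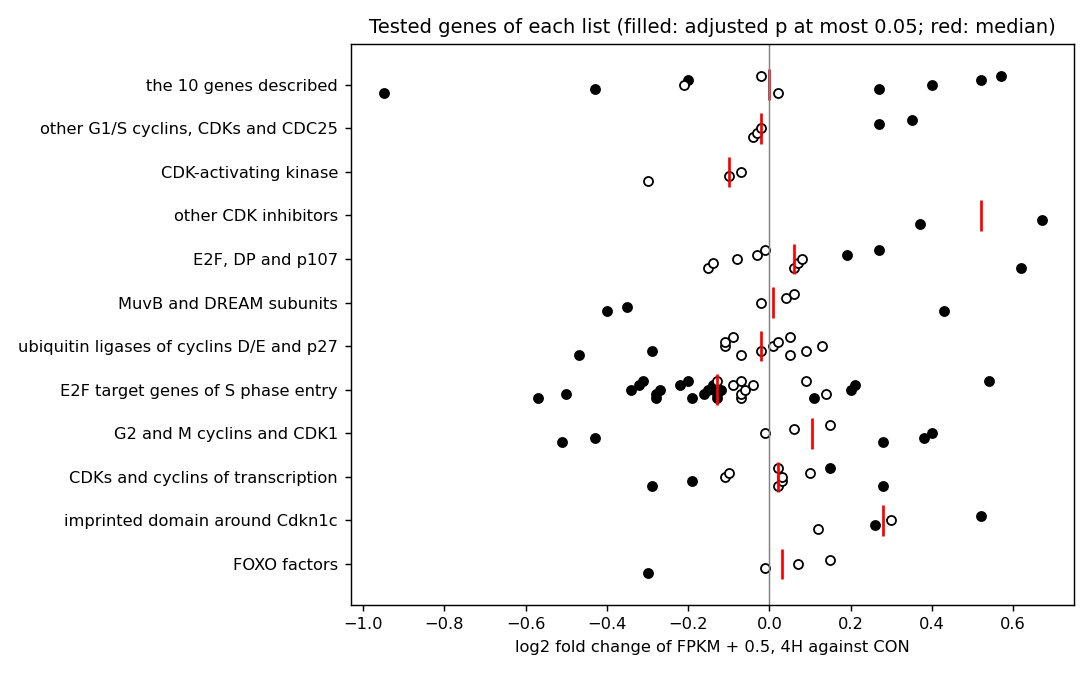
Log2 fold change of FPKM + 0.5 between 4H and CON for every tested gene of the 10 genes described and of the 11 related lists (rows), with the median of each list in red. Filled points passed an adjusted p of 0.05, and the S phase targets of E2F lie mostly left of 0 with a median of -0.13.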

How the data were processed

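RNA-seq libraries of C2C12 myoblasts, 3 of the CON and 3 of the 4H group, were analysed. Per the labels, libraries were strand-specific and made from poly(A) RNA. FPKM of all libraries were deposited by the authors in a single table, and the submitters' processing notes name mm10. Aligner, counting tool, annotation and use of strand: not given in the sources used here. Among 22128 rows with an Ensembl identifier, 22017 are in GENCODE M21 (GRCm38), which gave positions, exon overlaps and shared sequence in stretches of 75 bases.

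FPKM allows no count model. Differences were fitted with limma 3.58.1 in R 4.3.3 (trend on mean expression, two-sided) on log2(FPKM + 0.5) for genes averaging 0.5 FPKM or more, with Benjamini-Hochberg adjustment, and the fit was tested on simulated data. DESeq2, which the authors used, needs counts and was not run. Tables, exact permutation tests and plots used Python 3.11.15, pandas 2.3.3, SciPy 1.17.1 and matplotlib 3.10.9. Motifs were fixed letters searched on both strands of RefSeq promoter windows.

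The members and the gene lists were chosen with earlier results of these data known. All 10 members are named. Of each related list, the 2 called genes with the largest rise and the 2 with the largest fall at a mean of at least 1 FPKM are named, and the marker genes and genes that share exons with a member were added. Cdk2, Cdkn2a, Cdkn2b, Mnat1, Tssc4, Trpm5, Slc22a18, Kcnq1, Phlda2 and Ascl2 were named outside this rule, after their values were seen. Protein sequences were not used here. Alternatives were no filter or a minimum mean of 1 or 5 FPKM, a pseudocount of 0.1 or 1, no trend, array weights, TPM, median-of-ratios scaling, quantile normalization, a replicate block and each library left out in turn.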

Additional observations from a re-analysis of the deposited data

How the results depend on the processing

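Over 17 alternatives, the direction and the call of Ccnd1 (log2 fold change 0.50 to 0.55), Ccnd2 (-0.97 to -0.93), Ccnd3 (0.36 to 0.45), Cdk4 (-0.46 to -0.39) and Cdk6 (0.22 to 0.31) were the same, and Cdkn2c and Rbl2 never passed the test, with adjusted p from 0.484 to 0.869 and from 0.529 to 0.956. The other genes lie near the threshold. The adjusted p of Cdkn1b ranged from 0.0294 to 0.16 and passed with a filter at 5 FPKM (0.0479), in which fewer genes were tested. That of Cdkn1c ranged from 0.0117 to 0.073, failed with quantile normalization (0.0639), and has no value with the filter at 5 FPKM, and its log2 fold change moved between 0.42 with a pseudocount of 1 and 0.79 with one of 0.1. That of Rb1 ranged from 0.0104 to 0.0532. With the replicate block the adjusted p of Cdkn1b was 0.0302, and no other of the 10 calls changed. That block used the biosample numbers, by which same-numbered libraries had correlations of 0.025, -0.0929 and -0.126 across genes in their deviations from the group means. The highest correlation of any pair was 0.176, for CON replicate 3 and 4H replicate 2, whose titles share a number. A block by title number was not run, and neither numbering was taken to pair the libraries. The number of differentially expressed genes among all genes, 450, was 245 with a filter at 5 FPKM and 703 with TPM. The TPM fit kept a filter and a pseudocount of 0.5, looser on that scale, and tested 12457 genes. A change of pseudocount alone gave 591 with 0.1 and 347 with 1. With quantile normalization, the 4H minus CON difference of the D cyclin sum was 53 in place of 48 FPKM and that of the Cdk4 and Cdk6 sum was -46.8 in place of -52.1 FPKM. Among the shorter lists, 1 MuvB or DREAM gene in place of 2 was called lower with a filter at 5 FPKM, and 1 FOXO gene in place of 0 was called higher without a trend. FPKM gives no counting error, and its size was not estimated for any gene, among them Cdkn1c, the lowest of the 10.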

Other observations

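The cyclins and kinases of G2 and mitosis and their regulators held 3 of 8 genes called higher and 2 called lower in 4H, with 3 not past the test. Of all genes tested, 22.6% were called higher and 24.1% lower, and so small a list is not set apart from them by its counts. Cdk1, the mitotic kinase, rose from 39.2 ± 1.48 to 51 ± 0.287 FPKM (0.38 on the log2 scale, adjusted p = 9.02e-05 from limma), and Ccnf rose by 0.40 on the log2 scale (adjusted p = 0.000781). Ccnb2, a B cyclin, fell from 50.7 ± 3.22 to 35.4 ± 1.68 FPKM (-0.51, adjusted p = 0.000154), and Pkmyt1, an inhibitory kinase of CDK1, had a log2 fold change of -0.43 (adjusted p = 0.00559). Of 11 CDKs and cyclins of transcription, 2 were higher (Ccnt1, 0.28, and Cdk12, 0.15, whose call was lost in 6 alternatives) and 2 were lower (Ccnk, -0.29, and Cdk11b, -0.19).

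Cdkn1c lies in an imprinted domain. Of the 8 genes listed for it that are rows of the table, 4 could be tested. Cd81 and Nap1l4 rose (log2 fold changes 0.52 and 0.26, adjusted p = 3.04e-05 and 0.000228 from limma), while 22.6% of all genes tested were called higher. Tssc4 and Trpm5 did not pass (adjusted p = 0.0876 and 0.212). Below the minimum for testing, Slc22a18 was at 0.148 ± 0.129 FPKM in CON and 0.437 ± 0.184 FPKM in 4H, with every 4H library above every CON library. Kcnq1 was at means of 0.00864 and 0.0493 FPKM. Phlda2 was below 0.1 FPKM in the mean of either group, and Ascl2 was listed at 0 throughout. Of the 4 FOXO factor genes, Foxo4 fell from 5.85 ± 0.445 to 4.66 ± 0.135 FPKM (-0.30 on the log2 scale, adjusted p = 0.0136), a call that was lost without CON replicate 1.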
